A study of Homo sapiens with 2 samples.

Results

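The genes described here are 8 luminal and estrogen-responsive breast genes, namely TFF1, TFF3, DMBT1, GREB1, GATA3, FOXA1, CA12 and SPDEF. They were chosen by gene symbol out of 24462 symbols counted, and each of the 8 had a single row in both deposited count tables. RT-R-MDA-MB-231 cells, called RT-R below, are a radiotherapy-resistant derivative of the human cell line MDA-MB-231, obtained with X-ray fractions of 2 Gy that added up to 50 Gy. MDA-MB-231 cells, called parental below, are an established triple negative breast cancer line and served as the comparison. Both lines grew in the same RPMI medium with serum, and no hormone treatment is named for either. One RNA library per line was counted with a 3' tag kit, which reads transcript ends, so RT-R and parental cells are represented by 1 library each, and whether a line is 1 clone is not given in the sources used here. Without replicate libraries no p-values were computed, and every interval is a 95% interval for counting error within these 2 libraries.

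Luminal cells are the inner, secretory cells of the mammary gland, and luminal breast cancers usually carry the estrogen receptor. GATA3 and FOXA1 are transcription factors that open and bind chromatin together with that receptor, and SPDEF is an ETS-family factor of secretory epithelia. TFF1, TFF3, GREB1 and CA12 are classical genes induced by estrogen in receptor-positive breast cancer cells, and DMBT1 is a secreted scavenger receptor protein of mucosal and glandular epithelia. A triple negative line is defined by low or absent estrogen receptor, progesterone receptor and HER2.

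Promoter sequences from RefSeq (GRCh38.p14) were matched by symbol for 5 of the 8 genes, GATA3 with 6 alternative starts and DMBT1, FOXA1, CA12 and SPDEF with 1 each. TFF1, TFF3 and GREB1 had no entry. Shown are DMBT1, the gene with the largest called fold among those matched, and CA12 and SPDEF, whose levels differed in the same direction but by less. Each runs 5′ to 3′ in the direction of the gene, from 250 bases before the annotated start to 50 after it. Their positions are chr10:122560504-122560803 on the + strand for DMBT1, chr15:63381797-63382096 on the - strand for CA12 and chr6:34556280-34556579 on the - strand for SPDEF. Capitals mark every match, on either strand, to the letters searched, which were the full palindromic estrogen response element, its half-site GGTCA, the forkhead words TGTTTAC and TATTTAC, the GATA words AGATAA and TGATAA, and the ETS word AGGAAG.
DMBT1: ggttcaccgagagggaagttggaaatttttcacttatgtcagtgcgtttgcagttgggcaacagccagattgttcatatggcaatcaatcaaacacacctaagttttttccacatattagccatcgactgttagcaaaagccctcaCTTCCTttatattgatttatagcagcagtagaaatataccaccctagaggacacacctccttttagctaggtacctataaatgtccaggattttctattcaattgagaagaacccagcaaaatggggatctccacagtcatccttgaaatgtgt
CA12: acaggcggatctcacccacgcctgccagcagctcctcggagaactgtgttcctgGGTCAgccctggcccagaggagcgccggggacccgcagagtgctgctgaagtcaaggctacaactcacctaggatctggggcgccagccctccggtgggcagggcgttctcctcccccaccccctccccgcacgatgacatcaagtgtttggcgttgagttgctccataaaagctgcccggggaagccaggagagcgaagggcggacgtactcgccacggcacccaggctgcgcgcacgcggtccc
SPDEF: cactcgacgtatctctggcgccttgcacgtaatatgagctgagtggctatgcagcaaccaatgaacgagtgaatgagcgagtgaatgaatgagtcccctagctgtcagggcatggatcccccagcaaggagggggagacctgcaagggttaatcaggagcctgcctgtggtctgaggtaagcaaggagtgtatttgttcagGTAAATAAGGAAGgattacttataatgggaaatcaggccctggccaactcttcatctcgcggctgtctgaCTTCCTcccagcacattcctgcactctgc
The DMBT1 window held 1 match to the ETS word and none to the other words. The CA12 window held 1 estrogen half-site, a word found in 37.4% of all 35116 promoters of this length. The SPDEF window held the forkhead word TATTTAC on the reverse strand, read as GTAAATA, followed directly by AGGAAG without overlap, and a further ETS match after the start. TATTTAC occurs in 2.67% of the promoters, AGGAAG in 33.6%, TGTTTAC in 3.42%, AGATAA in 10.3% and TGATAA in 7.53%. The FOXA1 window held none of the words searched. The full response element was in none of these 4 windows and in 0.057% of all promoters, so its absence says only that these letters are not in the windows shown.

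Of the 8 genes, 5 had at least 20 counts in a library, the minimum for a gene to be called measured, and 3 did not (TFF3, GREB1 and FOXA1). TFF1 and DMBT1 passed that minimum through the parental library alone, so the lower RT-R values of these 2 genes are partly set by the minimum itself. A call of higher or lower needed a measured gene with at least a 2-fold difference and an interval that excluded equal expression. By this rule 2 genes were called lower in RT-R (TFF1 and DMBT1) and 0 higher. Of 12644 measured genes in the whole table, 3.97% were called lower and 6.89% higher. All 5 measured genes had intervals below equal expression, as did 30.4% of the measured genes of the whole table. Their median log2 ratio of RT-R to parental was -0.79, against -0.01 over all measured genes, whose median absolute log2 ratio was 0.34. The 8 genes were chosen with earlier results of these data known, so these counts describe them and carry no test.

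**Figure D1:**
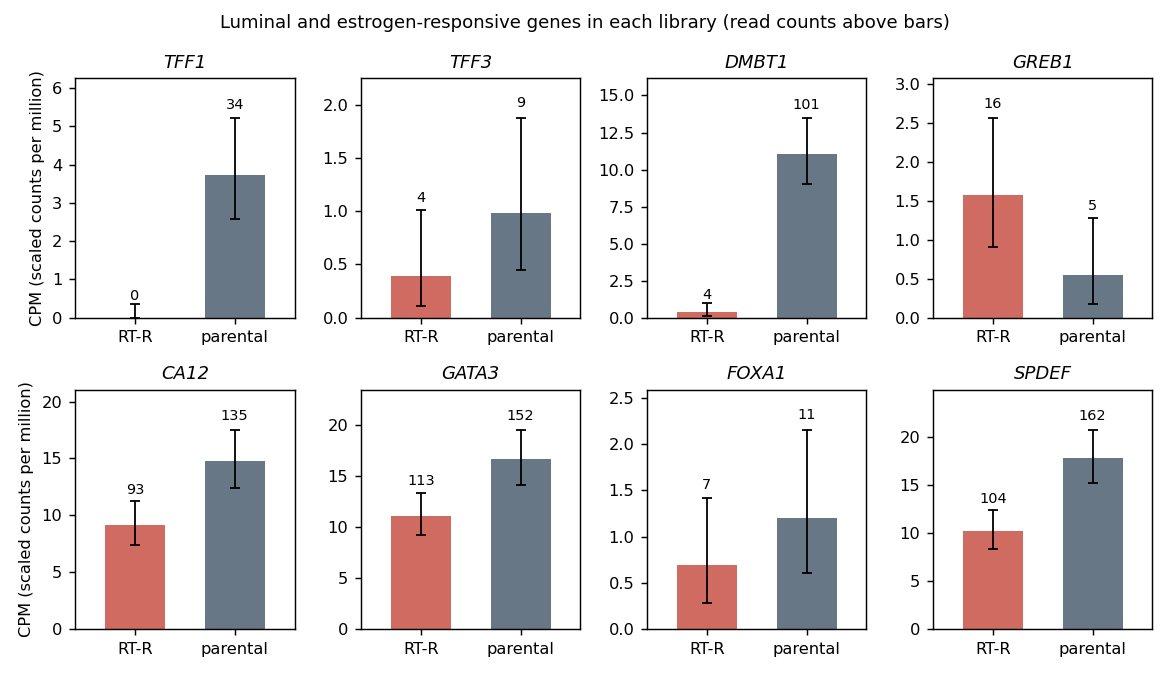
Levels of the 8 genes in the RT-R (left) and parental (right) library, in CPM after scaling, with bars for the level, error bars for the exact 95% Poisson interval of the count and read counts printed above. The y axes differ between genes. TFF1 and DMBT1 stood at 0 and 4 counts in RT-R against 34 and 101 in parental cells, and GREB1 alone was higher in RT-R.

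TFF1 and DMBT1 showed the largest differences of the 8 genes. TFF1, a small trefoil peptide secreted onto mucosal surfaces and one of the best known estrogen-induced genes of breast cancer cells, had 0 counts in RT-R and 34 counts in parental cells. On the scaled level this was 0 CPM (counts scaled to a library of 1000000) in RT-R, against 3.73 CPM (2.58 to 5.21) in parental cells. The 95% interval of the RT-R level reached up to 0.363 CPM. A preset limit of 3 counts (0.295 CPM in RT-R) was also used in place of a count of 0. TFF1 was 12.6-fold lower when RT-R is set at that preset limit and the parental count is taken as exact. The 95% interval of the ratio, which covers counting error in both libraries, starts at 9.73-fold lower and has no other end. DMBT1 had 4 counts in RT-R and 101 in parental cells, or 0.393 CPM (0.107 to 1.01) against 11.1 CPM (9.02 to 13.5). DMBT1 fell 28.2-fold (10.7 to 105), and the counting intervals of its levels lay far apart. Only 3 of the measured genes of the whole table had a lower log2 ratio than DMBT1 with the pseudocount of 0.5, and TFF1 was among them. With a pseudocount of 5 the log2 ratios were -3.03 for TFF1 and -3.67 for DMBT1, so the order of the 2 genes depends on it. Both were measured through the parental library alone, and their place among the measured genes carries no test. In bulk RNA, fewer cells with a transcript and less transcript per cell cannot be told apart.

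TFF3, the intestinal trefoil peptide and a second estrogen-induced member of that family, had 4 counts in RT-R and 9 in parental cells. Its ratio was 2.51-fold lower with an interval from 0.70 to 11.2, so a difference was not detectable at this depth. TFF2, the third trefoil gene and not one of the 8, had 5 counts in RT-R and 48 in parental cells and fell 10.7-fold (4.28 to 34.5). All 3 trefoil genes, which lie next to one another on chromosome 21, were therefore at 5 counts or fewer in RT-R, and between 9 and 48 in parental cells.

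GREB1, an early estrogen receptor target that acts as a receptor cofactor in breast cancer cells, went the other way. It had 16 counts in RT-R and 5 in parental cells, or 1.57 CPM (0.90 to 2.56) against 0.55 CPM (0.178 to 1.28). Its ratio was 2.87 with an interval from 1.004 to 10.01, which only just excludes equal expression, and neither library reached 20 counts. GREB1 would be called higher with no count minimum. The counting intervals of its levels in RT-R and parental cells overlap.

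CA12, carbonic anhydrase 12, is a membrane enzyme that hydrates carbon dioxide outside the cell and is a marker of estrogen receptor-positive tumours. It had 93 counts in RT-R and 135 in parental cells, or 9.15 CPM (7.38 to 11.2) against 14.8 CPM (12.4 to 17.5). The ratio was 1.62-fold lower (1.23 to 2.13), short of the 2-fold limit, and the intervals of the levels did not overlap.

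Among the transcription factors, SPDEF had 104 counts in RT-R and 162 in parental cells, or 10.2 CPM (8.36 to 12.4) against 17.8 CPM (15.1 to 20.7). SPDEF was 1.74-fold lower (1.35 to 2.24). GATA3, the zinc finger factor that specifies luminal cells, had 113 counts in RT-R and 152 in parental cells, or 11.1 CPM (9.16 to 13.4) against 16.7 CPM (14.1 to 19.5). GATA3 was 1.5-fold lower (1.17 to 1.93). Neither gene reached the 2-fold limit, and the counting intervals of both genes' levels were separate. The antisense gene GATA3-AS1, which overlaps GATA3, had 0 counts in both libraries. FOXA1 had 7 counts in RT-R and 11 in parental cells, 1.75-fold lower with an interval from 0.62 to 5.33, so a difference in FOXA1 was not detectable.

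**Figure D2:**
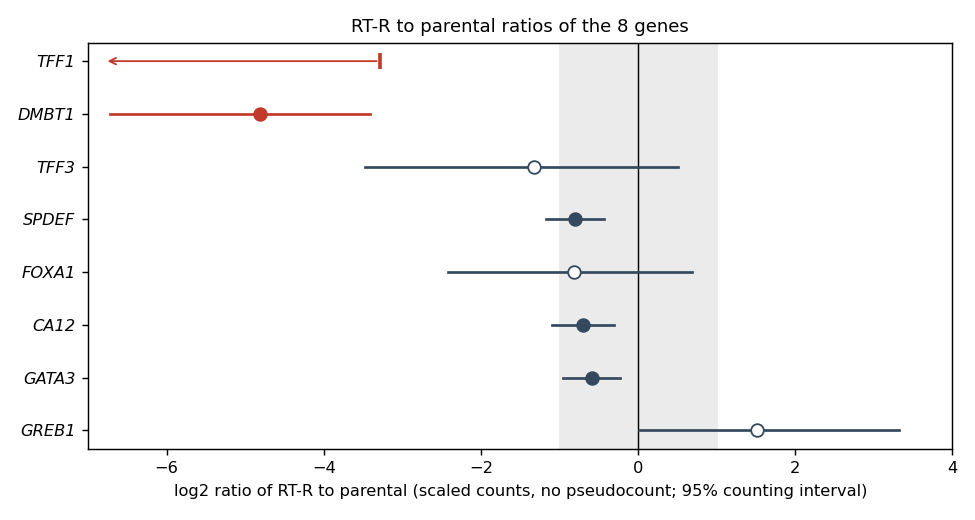
Log2 ratio of RT-R to parental for the 8 genes (x axis, no pseudocount) with 95% counting intervals. Filled points are measured genes, open points are genes under 20 counts in both libraries, red marks the 2 genes called, and the shaded band marks less than 2-fold. The TFF1 arrow starts at the end of its interval nearest to equal expression, 9.73-fold lower, and runs on without limit. SPDEF, CA12 and GATA3 lie within the band with intervals below 0, and TFF3 and FOXA1 cross 0.

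The log2 ratios of the 3 measured genes that missed the call lay close together, at -0.79 for SPDEF, -0.69 for CA12 and -0.58 for GATA3, and their intervals overlapped, so no order among them can be read. Over all measured genes, 12.6% had a log2 ratio at least 1.5-fold lower and 14.9% at least 1.5-fold higher by fold alone, and these shares are the background for differences of the size of SPDEF and CA12. The 8 genes together held 341 counts in RT-R and 609 in parental cells, or 33.5 CPM (30.1 to 37.3) against 66.8 CPM (61.6 to 72.3). TFF1 and DMBT1 made up 4 of these counts in RT-R and 135 in parental cells.

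The receptors were compared next, since they define the triple negative label. ESR1, the estrogen receptor alpha, had 1 count in RT-R and 0 in parental cells, and PGR, the progesterone receptor, had 0 in both. No ratio is given for either. The parental counts of TFF1 and DMBT1 come from a library with 0 ESR1 counts, for which the preset limit is 3 counts (0.329 CPM). Any part of the receptor in these counts was not tested. ERBB2, which encodes HER2, had 174 counts in RT-R and 230 in parental cells, 1.47-fold lower (1.21 to 1.81). ESR2, the estrogen receptor beta, had 6 counts in RT-R and 1 in parental cells, with an interval of the ratio from 0.65 to 247. GPER1, the membrane estrogen receptor, had 20 counts in RT-R and 57 in parental cells and fell 3.18-fold (1.88 to 5.59). PRLR, the prolactin receptor, had 4 counts in RT-R and 16 in parental cells, under the count minimum. Its ratio was 4.46-fold lower with an interval from 1.44 to 18.3, which excludes equal expression. ESRRA, an orphan receptor related to ESR1, had 2457 counts in RT-R and 1952 in parental cells, a ratio of 1.13 (1.06 to 1.198). Of the 8 receptor genes listed, 4 were measured, 1 was called higher and 1 lower.

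The mesenchymal label genes VIM (vimentin) and CD44 had 8454 and 3129 counts in RT-R and 4310 and 2560 in parental cells. The epithelial genes EPCAM and CDH1 (E-cadherin) had 26 and 68 counts in RT-R and 15 and 32 in parental cells. The luminal keratin genes KRT8, KRT18 and KRT19, named after their values were seen, had 578, 2816 and 2585 counts in RT-R and 590, 2525 and 3484 in parental cells. None of the 3 was called. KRT19 was 1.503-fold (1.43 to 1.58) and KRT8 1.14-fold (1.01 to 1.28) lower, and KRT18 had a ratio of 1.0 (0.95 to 1.06). KRT7, also named after its values were seen, was 1.37-fold lower (1.28 to 1.47). Of 12 markers of other cell types, 5 were measured, with 1 called higher, 2 lower and a median log2 ratio of -0.83. That median is close to the -0.79 of the measured genes among the 8. The leukocyte genes PTPRC and CD3E had 0 counts in both libraries, and the endothelial genes VWF and CDH5 had at most 1. PECAM1, an adhesion gene of endothelial and some blood cells, fell to 50 counts in RT-R, against 223 in parental cells, and was 4.97-fold lower (3.65 to 6.90). PDGFRB, a receptor of pericytes and fibroblasts, fell 2.07-fold (1.28 to 3.41), and CD14, a monocyte receptor, rose 2.50-fold (1.33 to 4.98). CD68 and ALB had the largest counts of this marker list, with 452 and 332 in RT-R and 346 and 529 in parental cells. Neither was called. The summed counts of the list were 906 in RT-R and 1165 in parental cells, and the part of other cells in the differences of TFF1 and DMBT1 was not tested.

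**Figure D3:**
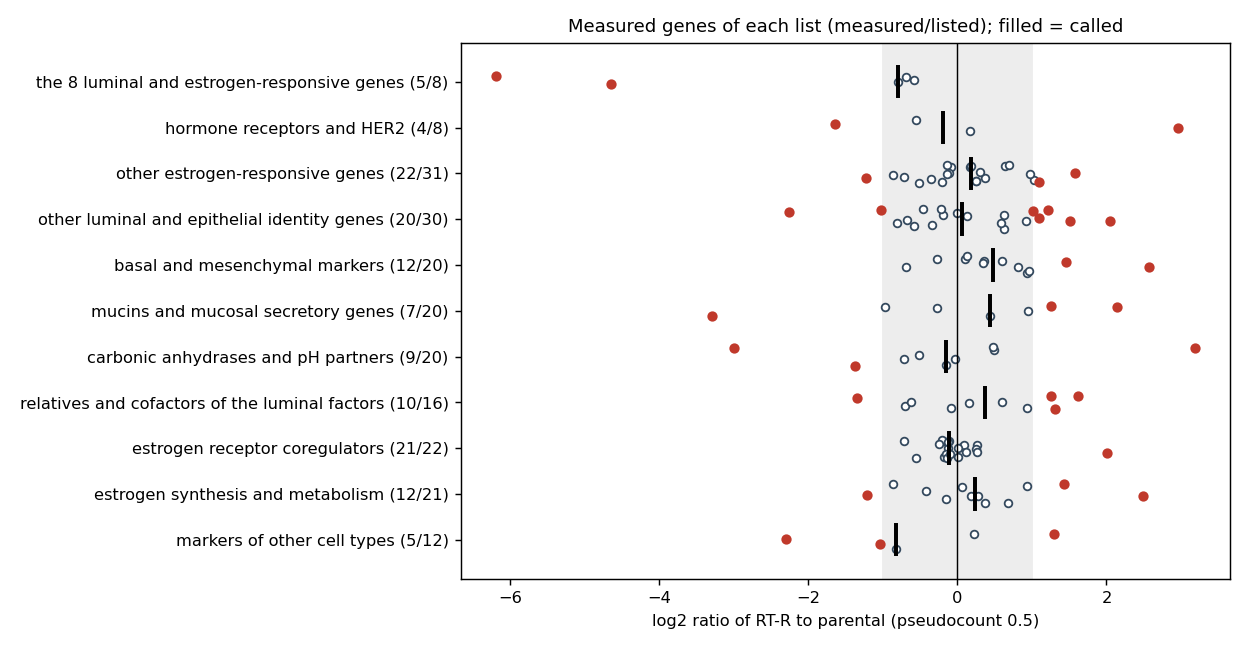
Log2 ratio of RT-R to parental (x axis, pseudocount 0.5) of every measured gene of the 8 and of 10 further lists, with measured and listed gene numbers in brackets. Filled points are called genes, black bars are list medians and the shaded band marks less than 2-fold. The plotted value of TFF1, at 0 counts in RT-R, depends on the pseudocount. The medians of the measured other estrogen-responsive and other luminal genes lie at 0.18 and 0.07, against -0.79 for the 5 measured of the 8 genes. The markers of other cell types, also with 5 measured genes, have a median of -0.83, so a low median is not particular to the 8 genes.

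Among the measured genes of the other estrogen-responsive list the lowest log2 ratio was -1.22, in ADCY9, against -4.64 for DMBT1. Of 31 listed, 22 were measured, 2 were called higher and 1 lower, with a median log2 ratio of 0.18 and 12 genes above 0 against 10 below. SUSD3, a sushi-domain protein of estrogen receptor-positive tumours, had 143 counts in RT-R and 60 in parental cells and rose 2.14-fold (1.57 to 2.94). PKIB, a protein kinase A inhibitor, had 21 counts in RT-R and 6 in parental cells and rose 3.14-fold (1.23 to 9.50). ADCY9, an adenylyl cyclase, had 56 counts in RT-R and 118 in parental cells and fell 2.35-fold (1.70 to 3.29). The called shares of this list are near the background of 6.89% higher and 3.97% lower. The same background applies to the called counts of every other list.

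Other luminal and epithelial identity genes were called in both directions. Of 30 listed, 20 were measured, 5 were called higher and 2 lower, with a median log2 ratio of 0.07. Both called shares are above the background of 6.89% higher and 3.97% lower. The list was chosen with earlier results of these data known, so this carries no test. TFAP2C, an AP-2 factor that regulates luminal genes, had 2463 counts in RT-R and 534 in parental cells and rose 4.14-fold (3.77 to 4.55). CD24, a surface glycoprotein with close copies in the genome, rose 2.86-fold (2.23 to 3.69) and is uncertain for that reason. The other higher genes, named after their values were seen, were XBP1 (2.32-fold, 2.11 to 2.56), ELF3 (2.14-fold, 1.73 to 2.66) and CLDN7 (2.01-fold, 1.83 to 2.22). XBP1 is a secretory factor co-expressed with the estrogen receptor in tumours, ELF3 an epithelial ETS factor and CLDN7 a tight junction claudin. MUC1, a membrane mucin of luminal cells, had 99 counts in RT-R and 425 in parental cells and fell 4.79-fold (3.84 to 6.02), and the claudin CLDN4 fell 2.03-fold (1.88 to 2.196). Luminal identity genes outside the 8 therefore included some that rose, among them TFAP2C and XBP1, and MUC1, which fell.

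Of 20 basal and mesenchymal markers, 12 were measured, with 2 called higher, 0 lower and a median log2 ratio of 0.48. Over all measured genes 6.89% were called higher and 3.97% lower. CDH3, the cadherin of basal cells, had 62 counts in RT-R and 9 in parental cells and rose 6.18-fold (3.05 to 14.1). The basal keratin genes KRT5, KRT6A and KRT6B had 0 counts in both libraries. KRT14 had 1 count in RT-R and 2 in parental cells. KRT17 had 6 counts in RT-R and 0 in parental cells, and both genes were under the count minimum.

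Relatives of the 8 genes were described family by family. In the list of relatives and cofactors of the luminal factors, 10 of 16 were measured, with 3 called higher and 1 lower. Both shares are above the background of 6.89% higher and 3.97% lower, in a list of few measured genes. GATA6 had 34 counts in RT-R and 78 in parental cells and fell 2.56-fold (1.69 to 3.95), whereas GATA2, named after its values were seen, had 150 counts in RT-R and 54 in parental cells and rose 2.49-fold (1.81 to 3.47). The ETS factors ELF1 and ETS1 rose 3.08-fold (2.47 to 3.87) and 2.38-fold (2.21 to 2.56). Further ETS factors, named after their values were seen, went both ways without reaching 2-fold. ELF4 was 1.63-fold (1.44 to 1.84) and EHF, from the luminal identity list, 1.604-fold (1.40 to 1.84) lower, like SPDEF. ETS2 was 1.51-fold higher (1.36 to 1.68), and ELF2 had a ratio of 0.94 (0.75 to 1.19). Among carbonic anhydrases and pH partners, 9 of 20 were measured, with 1 called higher and 2 lower. CA9, the hypoxia-induced membrane carbonic anhydrase related to CA12, had 4 counts in RT-R and 32 in parental cells and fell 8.92-fold (3.16 to 34.7). CA5B, a mitochondrial carbonic anhydrase on the X chromosome, fell 2.62-fold (1.74 to 4.04), and the median log2 ratio of 423 measured X-linked genes was -0.78. The lactate transporter gene SLC16A1 had 86 counts in RT-R and 8 in parental cells and rose 9.64-fold (4.68 to 23.04). Mucins and mucosal secretory genes had 7 of 20 measured, 2 called higher and 1, TFF2, called lower. The gel-forming mucin genes MUC5B and MUC2 rose 4.58-fold (2.22 to 10.7) and 2.47-fold (1.06 to 6.41). MUC5AC, a further gel-forming mucin named after its values were seen, had 210 counts in RT-R and 371 in parental cells and was 1.97-fold lower (1.66 to 2.35), just short of the 2-fold limit.

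Estrogen receptor coregulators were nearly level, with 21 of 22 measured, 1 called higher, 0 lower and a median log2 ratio of -0.11. The gene called was NRIP1, a corepressor that is itself induced by estrogen, with 402 counts in RT-R and 89 in parental cells, and it rose 4.05-fold (3.21 to 5.16).

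**Figure D4:**
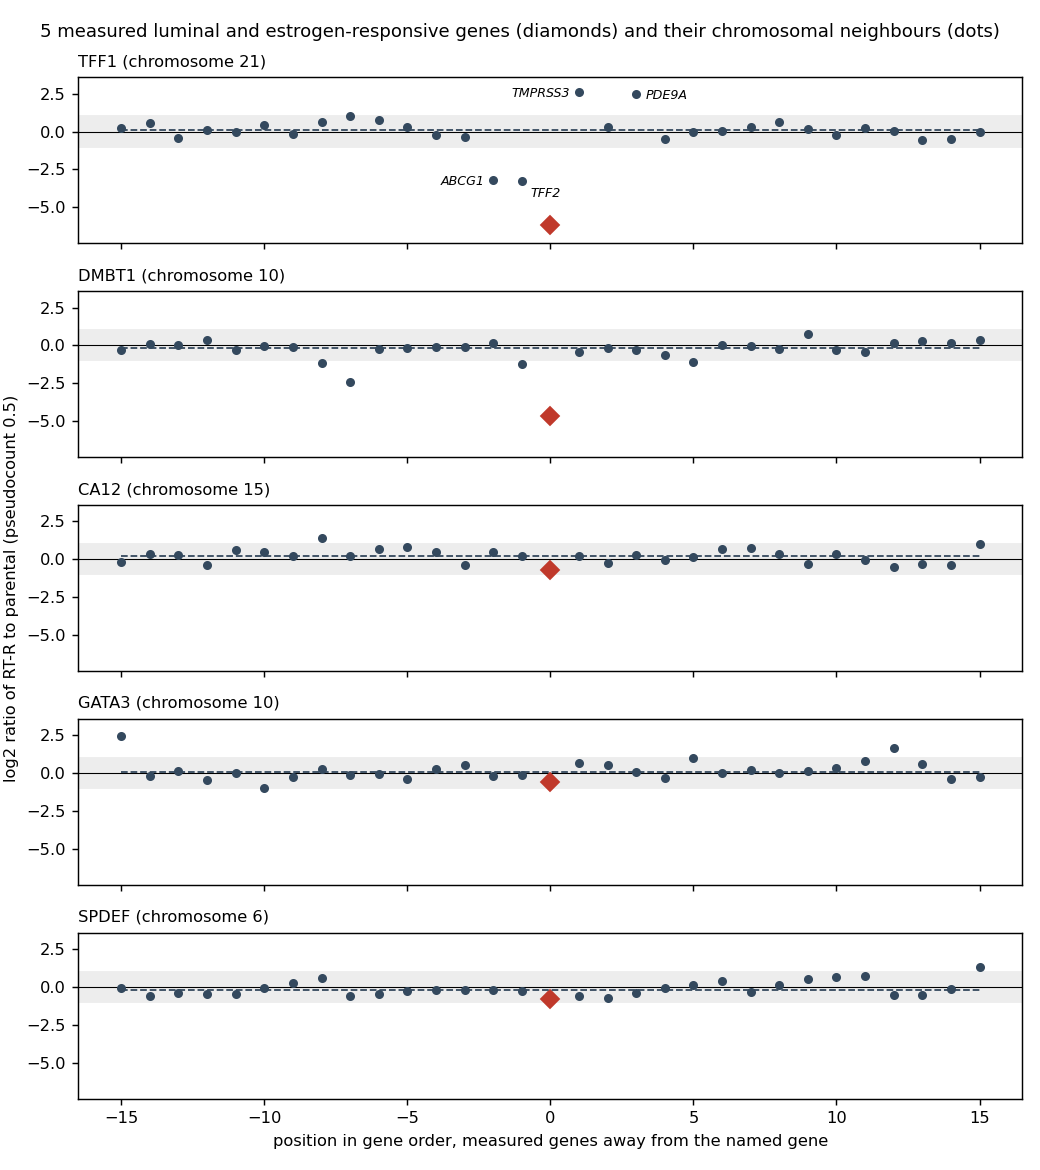
Log2 ratio of RT-R to parental (y axis, pseudocount 0.5) of the 5 measured genes (diamonds) and of the 15 measured genes on each side (dots), by position in gene order (x axis). Dashed lines are neighbour medians and the shaded band marks less than 2-fold. TFF1 sits beside TFF2 and ABCG1, which were also lower, and TMPRSS3 and PDE9A, which were higher. The neighbours of DMBT1 have a median of -0.14.

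Each gene was then set against its neighbours in gene order. Around TFF1 the median log2 ratio of 30 measured neighbours was 0.07, with 3 called higher and 2 lower. The adjacent measured genes were TFF2, given above, and TMPRSS3, a membrane serine protease gene, which had 37 counts in RT-R and 5 in parental cells and rose 6.64-fold (2.60 to 21.6). Next to the trefoil genes on the far side lay ABCG1, a cholesterol exporter, with 8 counts in RT-R and 69 in parental cells. Lower genes thus stood directly beside higher ones on chromosome 21. Around DMBT1 the median was -0.14, with 0 neighbours called higher and 4 lower. HTRA1, a secreted serine protease gene on one side of DMBT1, had 221 counts in RT-R and 459 in parental cells and fell 2.32-fold (1.97 to 2.73), and FAM24B on the other side was 1.35-fold lower (1.13 to 1.62). The neighbour medians were 0.24 for CA12, 0.07 for GATA3, -0.20 for SPDEF, -0.29 for FOXA1, 0.13 for TFF3 and 0.09 for GREB1. After subtraction of the neighbour median the log2 ratio was -4.50 for DMBT1, -0.93 for CA12, -0.65 for GATA3, -0.59 for SPDEF and 1.35 for GREB1, so no direction changed.

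The measured genes with the most similar pair of levels were found by the Euclidean distance of log2 CPM over the 2 libraries. For TFF1 they were the noncoding gene LINC00960, at a distance of 0.284 with 1 count in RT-R and 31 in parental cells, and RGN, which encodes a calcium-binding protein, at 0.333 with 0 and 44 counts in RT-R and parental cells. For DMBT1 they were CHRDL1, a secreted BMP antagonist, at 0.725 with 6 counts in RT-R and 62 in parental cells, and ABCG1 at 0.741. RGN and CHRDL1 lie on the X chromosome, whose median is given above. With 2 libraries, such likeness describes levels alone.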

How the data were processed

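Total RNA of RT-R-MDA-MB-231 and MDA-MB-231 cells was measured with a Lexogen QuantSeq 3' tag kit, per the labels' protocols. The values deposited by the authors are raw counts, whole numbers for each gene symbol without normalization. The submitters' processing notes name hg19, Bowtie2, bedtools and bcl2fastq 2.20.0.422. Tool settings, annotation, strand use and the treatment of reads with several matches were not given in the sources used here, and such reads can raise or lower counts of similar or overlapping genes. No molecular identifiers are named, so PCR copies may be counted and intervals and floors cover counting error only.

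Repeated symbols were summed. Totals were 10014804 counts for RT-R and 9255008 for parental. Libraries were scaled by TMM (edgeR 4.0.16, R 4.3.3), used for scaling alone. Log2 ratios used a pseudocount of 0.5 and fold ratios an exact conditional 95% interval (scipy 1.17.1, Python 3.11.15). The 2-fold call used the log2 ratio. Bounds took 3 counts per library in place of 0, and no ratio was given with both libraries at or under 3. The calculations were tested on simulated counts with counting error alone and with changes placed only in well-counted genes. That test does not cover changes at low counts, PCR copies or differences between cultures.

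The 8 genes and all lists were chosen with earlier results of these data known. Named were the 8 genes, all receptors, up to 2 highest and 2 lowest called genes per list by the interval bound nearest to 1, label genes, and the nearest genes by position and level of called genes. A few genes covered by this rule are left out and not reported here. Gene order came from RefSeq GRCh38.p14, which placed 98.5% of measured genes. Counts were made on hg19, so only promoter positions of GRCh38.p14 are printed. Alternatives were other scalings (total counts, upper quartile, DESeq2 1.42.0 median of ratios), a pseudocount of 5, count minimums of 0 and 100, folds of 1.5 and 4, a 99% interval and subtraction of neighbours.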

Additional observations from a re-analysis of the deposited data

How the results depend on the processing

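Of 78 recomputed values, 68 kept their value within counting error, or for counts within 1.5 times, 10 moved and 0 changed direction. The 3 other scalings shifted all log2 ratios by at most 0.04. With a pseudocount of 5 the log2 ratio of TFF1 was -3.03, since 0 counts in RT-R make it depend on the pseudocount. The number of the 8 genes called higher was 1 (GREB1) with no count minimum. The number called lower was 1 (DMBT1) with a minimum of 100 counts, which leaves out TFF1, and 4 with a 1.5-fold threshold, which adds SPDEF and CA12. GATA3, at 1.5-fold, fell just outside that threshold because of the pseudocount. Over the whole table, higher and lower calls were 356 and 265 with a minimum of 100 counts, 1734 and 1501 at 1.5-fold, and 292 and 67 at 4-fold. Depth limits TFF3, FOXA1 and GREB1, with under 20 counts in both libraries, and the receptors ESR1, ESR2 and PGR. No paired analysis was possible because each line had 1 library, and for the same reason no replicate could be left out.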

Other observations

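Genes of estrogen synthesis and metabolism were also counted. Of 21 listed, 12 were measured, with 2 called higher, 1 lower and a median log2 ratio of 0.23. CYP19A1, the aromatase that makes estrogen, had 1 count in each library. AKR1C3, a ketosteroid reductase with close copies in the genome, had 140 counts in RT-R and 22 in parental cells and rose 5.71-fold (3.62 to 9.40). SULT1A1, a sulfotransferase that also has close copies, had 61 counts in RT-R and 20 in parental cells and rose 2.74-fold (1.63 to 4.79). STS, the steroid sulfatase on the X chromosome, had 117 counts in RT-R and 243 in parental cells and fell 2.32-fold (1.85 to 2.91). The counts of AKR1C3 and SULT1A1 are uncertain, since how reads were divided among similar genes is not given in the sources used here.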
